A study of Mus musculus with 800 samples.

Results

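Pvalb, Calb1, Calb2, Necab1, Necab2, Pcp4, Hpca and Hpcal4 code for small proteins with which neurons buffer or read calcium. They were taken as a set of 8 genes by symbol, and each matched 1 row among the 32285 genes of the count table. The counts come from single nuclei of C57Bl/6J mice, sorted for SYFP2, a yellow fluorescent protein that histone H2B holds in the nucleus. The reporter was carried by 20 adeno-associated virus vectors with the PHP.eB capsid, which reaches the brain from the blood, at 5e11 vg (vector genomes) per mouse, and nuclei were taken 3 to 4 weeks later. Each vector has its own promoter or enhancer and 40 labelled nuclei, so 800 nuclei form 20 groups that share strain, capsid, reporter, dose and time. Every label names the anterior lateral motor cortex as the source, while the design text of the series says that striatum and visual cortex were sorted as well. hSyn1 is a neuronal promoter, CMV a general viral promoter, DLX2.0 and hI56i hold Dlx enhancers of forebrain inhibitory neurons, and the remaining 16 vectors carry codes that begin with AiE. No untreated mouse is among the labelled nuclei, and the labels name neither the animal nor its age.

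Calcium enters a neuron with each action potential and is then bound by proteins that differ between cell types. Parvalbumin (Pvalb), calbindin (Calb1) and calretinin (Calb2) hold calcium in EF-hand loops and act mainly as buffers, and cortical interneurons are commonly sorted into types by which of them they contain. Hippocalcin (Hpca) and hippocalcin-like 4 (Hpcal4) belong to the neuronal calcium sensors, which carry a lipid anchor and change partners when calcium binds. Necab1 and Necab2 join EF-hands to a second domain, while the Pcp4 protein has no EF-hand and instead binds calmodulin, the general calcium sensor, and speeds its exchange of calcium. In the striatum, projection neurons are known for calbindin and Pcp4, and parvalbumin marks fast-spiking interneurons.

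Pvalb, Pcp4 and Necab2, 3 of the genes whose highest class mean stood above the next by more than the larger SD, are shown by the 250 bases before a start site, because these stretches differ in the dinucleotide CG. Hpca, which did so too, has several start sites and is not shown. The sequences are RefSeq's, build GRCm38.p6, written 5′ to 3′ along the strand of the gene, with each CG in capitals. That of Pvalb lies at chr15:78206401-78206650 on the minus strand, that of Pcp4 at chr16:96467356-96467605 on the plus strand and that of Necab2 at chr8:119446469-119446718 on the plus strand.
Pvalb: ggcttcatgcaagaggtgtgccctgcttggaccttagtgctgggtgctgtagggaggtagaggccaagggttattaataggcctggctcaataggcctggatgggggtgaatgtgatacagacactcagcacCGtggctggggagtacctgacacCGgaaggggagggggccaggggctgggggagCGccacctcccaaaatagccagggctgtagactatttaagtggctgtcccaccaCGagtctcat
Pcp4: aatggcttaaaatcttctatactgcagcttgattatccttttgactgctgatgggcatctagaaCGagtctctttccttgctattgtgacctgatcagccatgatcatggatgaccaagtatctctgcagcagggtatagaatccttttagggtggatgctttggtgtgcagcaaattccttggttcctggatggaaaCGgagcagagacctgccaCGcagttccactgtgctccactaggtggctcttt
Necab2: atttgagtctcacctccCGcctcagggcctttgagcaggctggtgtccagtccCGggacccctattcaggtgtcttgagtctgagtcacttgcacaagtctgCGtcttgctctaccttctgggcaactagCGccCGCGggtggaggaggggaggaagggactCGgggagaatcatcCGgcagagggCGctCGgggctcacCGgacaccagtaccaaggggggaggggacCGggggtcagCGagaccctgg
CG occurred 4 times before Pvalb, 3 times before Pcp4 and 13 times before Necab2, against a median of 6 in 32851 promoters of that length. A further start of Pvalb, at position 78204237 of chromosome 15, has 23 before it. The stretch before Hpcal4 held 16, and those before 3 starts of Hpca held 6, 16 and 3. TATAA, searched on both strands, was in none of these 8 stretches, and 22.8% of all promoters hold it. TGACG, the core of the cAMP response element, was also in none, against 17.8% of all promoters. RefSeq promoters were matched for 5 of the 8 genes, and Calb1, Calb2 and Necab1 are named only.

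The labels name no animal, so p-values measure only the spread between vectors, and intervals cover counting error only, since reads carry no molecular identifiers. The depth was 260170.5 counts per nucleus at the median (70 to 901264), vector medians ran from 209113 to 314832.5, and 698 nuclei had at least 1000 genes detected and were kept. Classes were formed by clustering all genes except the 8 and a wider list of 62 calcium-binding genes, and were named from markers, so each name ends in "-like". GABAergic-like nuclei (257) express the genes of inhibitory neurons, glutamatergic-like nuclei (108) those of excitatory neurons, and astrocyte-like (106) and oligodendrocyte-like (50) nuclei those of the main glia. A further 161 nuclei were striatal projection neuron-like, with 10 of 10 striatal markers above 10 CPM and a summed marker level of 9186 CPM (counts scaled to a total of 1e+06 over the nuclei summed), although all labels name cortex. They sat in 38 of 100 runs of 8 consecutive title numbers, and those runs also held 67 GABAergic-like, 33 glutamatergic-like and 17 astrocyte-like nuclei, whose region cannot be told from the labels. 16 nuclei stayed unnamed. Glial nuclei had fewer genes detected, with medians of 1454 and 1139.5 against 2652 to 3264.5 in the named neuronal classes, at median depths of 300958.5 and 297629 against 241227 to 250253 counts.

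The buffers were not spread alike over the classes. Pvalb (ENSMUSG00000005716, mm10 chr15:78191114-78206400, minus strand) was read in 117 of 257 GABAergic-like nuclei (45.5%, 95% interval 39.3 to 51.8%). The other classes were at 6.48% (7 of 108 glutamatergic-like), 2.48% (4 of 161 striatal projection neuron-like) and 7.55% (8 of 106 astrocyte-like), and 0 of 50 oligodendrocyte-like nuclei had a read, which allows a share of up to 6.00%. Summed per vector, its level was 277 ± 139 CPM in GABAergic-like nuclei (SD, n = 18 vectors with at least 3 such nuclei), from 60.2 to 554 with a median of 283, and not more than 14.5 on average in any other class. That step was larger than the larger of both SDs, and the steps among the remaining classes were not. Over all nuclei, GABAergic-like nuclei had 264 CPM, 1341 times the floor of 3 counts over the oligodendrocyte-like nuclei, a floor of reads and not of nuclei. In shares of nuclei these classes stood closer, at 45.5% against an upper limit of 6.00%, so the multiple is not a lower limit of a fold.

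Calb1 (ENSMUSG00000028222, chr4:15881264-15908064, plus strand) spread over several classes. It was read in 110 of 161 striatal projection neuron-like nuclei (68.3%, 60.5 to 75.4%), in 98 of 257 GABAergic-like (38.1%) and in 42 of 108 glutamatergic-like (38.9%), but in 10 of 106 astrocyte-like (9.43%) and 4 of 50 oligodendrocyte-like nuclei (8%). Its mean level was 350.1 ± 237 CPM in striatal projection neuron-like sums (n = 14), from 54.8 to 944 with a median of 309, and 275 ± 161 in GABAergic-like sums (n = 18), from 0 to 604 with a median of 305. These 2 classes overlapped and lay within 1 SD of each other, while the step down to the glutamatergic-like mean of 91.9 ± 99.4 CPM (n = 12) exceeded the larger SD. The striatal level also differed between library series, a number in the library names, with 591 CPM over the 41 nuclei of series S40324 and 228 CPM over the 113 of S40326. The part of the library series in the levels was not tested.

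Calb2 (ENSMUSG00000003657, chr8:110137502-110168210, minus strand) was the sparsest of the set. Reads were found in 13 of 257 GABAergic-like nuclei (5.06%, 2.72 to 8.49%) and in 0 nuclei of the 4 other named classes, which allows shares of up to 2.78% of glutamatergic-like, 1.86% of striatal projection neuron-like, 2.83% of astrocyte-like and 6.00% of oligodendrocyte-like nuclei. The GABAergic-like level of 15.5 CPM was 146 times the floor of 3 counts over the glutamatergic-like nuclei. It was 204 times that over the striatal projection neuron-like nuclei. In shares of nuclei the classes stood closer, at 5.06% against upper limits of 2.78 and 1.86%, so these multiples are not lower limits of a fold. Only 8 of 18 vectors had a read in their GABAergic-like nuclei, and the mean of 12.9 CPM was smaller than its SD of 18.7. Too few sums held a read for Calb2 to be tested in any comparison.

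Both calcium sensors were read in every named class. Hpca (ENSMUSG00000028785, chr4:129111570-129122036, minus strand) was found in 137 of 161 striatal projection neuron-like nuclei (85.1%, 78.6 to 90.2%), against 48 of 108 glutamatergic-like (44.4%), 67 of 257 GABAergic-like (26.1%), 25 of 106 astrocyte-like (23.6%) and 11 of 50 oligodendrocyte-like nuclei (22%). The striatal sums had 693 ± 307 CPM (n = 14), from 191 to 1359 with a median of 644. The other 4 class means lay between 116 and 181 CPM, and no step among them exceeded the larger SD. Hpcal4 (ENSMUSG00000046093, chr4:123183227-123194701, plus strand) led instead in glutamatergic-like nuclei, in 42 of 108 (38.9%, 29.7 to 48.7%), with 18.01% of striatal projection neuron-like, 15.95% of GABAergic-like, 9.43% of astrocyte-like and 4.00% of oligodendrocyte-like nuclei. Its glutamatergic-like sums had 160.1 ± 115 CPM (n = 12), from 21.7 to 446 with a median of 135, and the other class means lay between 33.9 and 62.0 CPM. The step to the next class, oligodendrocyte-like nuclei, was smaller than the larger SD.

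Pcp4 (ENSMUSG00000090223, chr16:96467606-96525793, plus strand) was the most abundant of the 8 in striatal projection neuron-like nuclei. It was read in 151 of 161 (93.8%, 88.9 to 97.0%), at 922 ± 359 CPM (n = 14), from 238.8 to 1810 with a median of 906. The next class mean, of GABAergic-like sums, was 281 ± 322 CPM (n = 18), and its SD was larger than itself. Pcp4 and Hpca were also the members most often read in glia, Pcp4 in 30 of 106 astrocyte-like nuclei (28.3%) and 8 of 50 oligodendrocyte-like nuclei (16%). After thinning each nucleus to 150000 counts the shares were 27.9 and 16.3%, and 94.0% in the striatal class.

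The Necab genes differed from each other in where they were read. Necab2 (ENSMUSG00000031837, chr8:119446719-119472640, plus strand) had reads in 77 of 161 striatal projection neuron-like nuclei (47.8%, 39.9 to 55.8%) and 44 of 257 GABAergic-like nuclei (17.1%), but in 4 of 108 glutamatergic-like nuclei (3.70%, 1.02 to 9.21%). Astrocyte-like nuclei had a share of 4.72% and oligodendrocyte-like nuclei one of 4.00%, at greater median depths, so the few glutamatergic-like reads are not taken as a level above that of glia. Its striatal mean of 238 ± 143 CPM (n = 14) was set apart from the 53.8 ± 46.8 CPM of GABAergic-like sums (n = 18) by more than the larger SD. Necab1 (ENSMUSG00000040536, chr4:14952245-15149794, minus strand) was read in 31.7% of striatal projection neuron-like, 30.6% of glutamatergic-like and 17.5% of GABAergic-like nuclei, in 5 of 106 astrocyte-like and in 0 of 50 oligodendrocyte-like nuclei. Its class means of 151 ± 131, 69.2 ± 60.2 and 61.5 ± 65.2 CPM did not differ beyond their spread. The antisense gene Gm11837 shares 410 exon bases with Necab1, 7.83% of its exon length, Igsf5 shares 243 with Pcp4 on the same strand (23.7%) and Tmem54 shares 57 with Hpca. The library kit does not mark strand, so reads of the stretches shared with Gm11837 or Tmem54, on the opposite strand, cannot be assigned. Strand would not separate reads of Igsf5 and Pcp4, and Igsf5 has no row in the count table. Exon lengths here come from GENCODE M21.

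**Figure D1:**
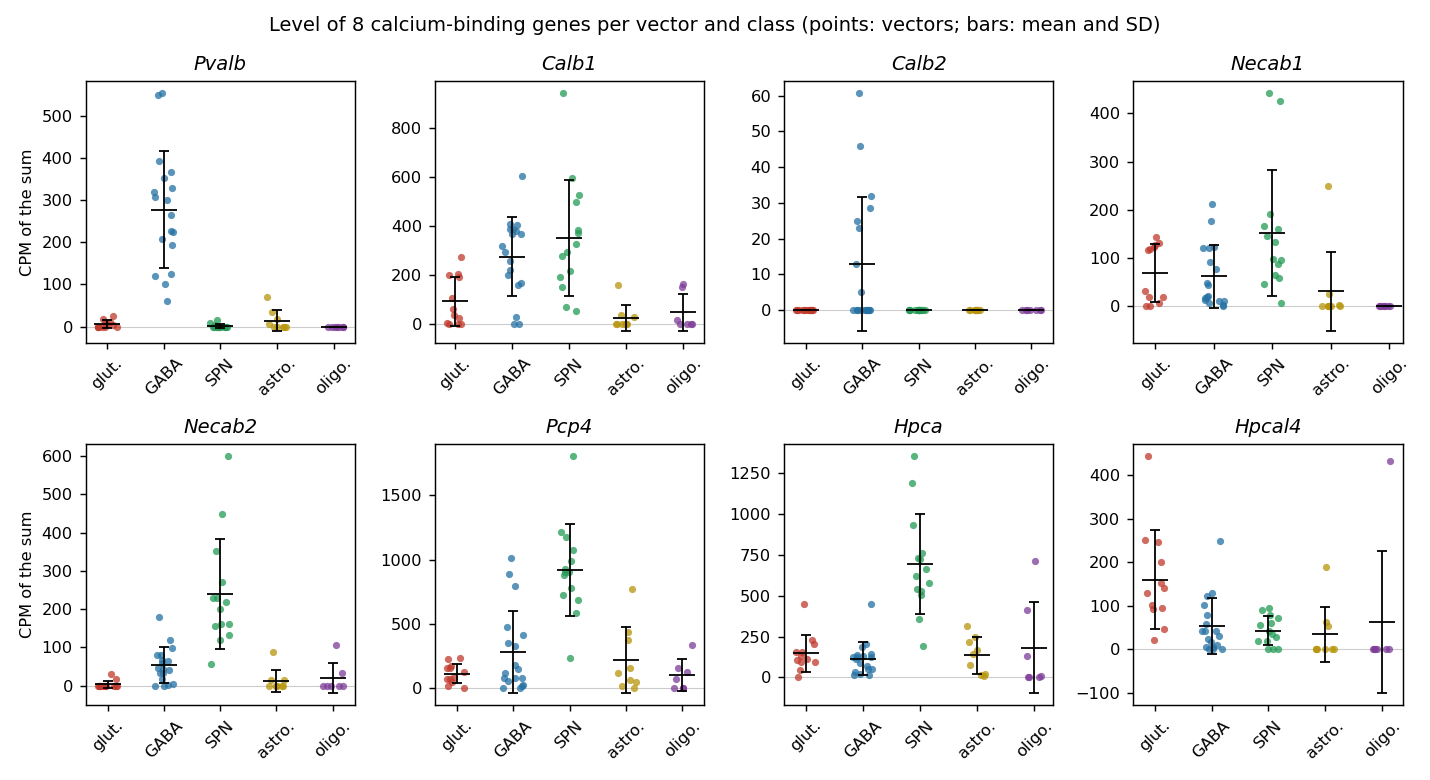
Level of each gene (vertical axes, CPM of the summed nuclei, linear and on a scale of its own per gene) in each vector with at least 3 nuclei of a class; points are vectors and bars the mean and SD over vectors. From left to right the classes are glutamatergic-like (glut.), GABAergic-like (GABA), striatal projection neuron-like (SPN), astrocyte-like (astro.) and oligodendrocyte-like (oligo.): Pvalb stands out in GABAergic-like nuclei, where no vector is below 60.2 CPM, and Pcp4, Hpca and Necab2 in striatal projection neuron-like nuclei.

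Per kilobase of exon, a rough scale for setting genes beside each other, Pcp4 had the highest pooled level of the 8 in every named class, neuronal or glial. Its level was 916 CPM per kb in striatal projection neuron-like nuclei, where Hpca followed with 230 and Necab2 with 102. In GABAergic-like nuclei Pcp4 and Pvalb were nearly level, at 255 and 253 CPM per kb, followed by Calb1 at 65.1. There the pooled Pcp4 level drew on the 24 nuclei of the Sst-like cluster 8, at 1757 CPM per kb, while in Pvalb-type-like nuclei Pvalb had 447 and Pcp4 83.5 CPM per kb. Over the 18 vectors with GABAergic-like sums the median was 283 CPM for Pvalb and 134 CPM for Pcp4, not scaled by length. In glutamatergic-like nuclei Pcp4 had 141 CPM per kb, Hpca 41.6, Hpcal4 23.9 and Calb1 21.1. Astrocyte-like nuclei had 157 CPM per kb of Pcp4, above that glutamatergic-like level, and oligodendrocyte-like nuclei had 95.9. The lengths are those of all annotated exons, so a gene read mostly from a short transcript is understated. The counting rule is not known, and if reads of introns were counted, division by exon length would not make genes comparable.

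The first comparison asked how inhibitory and excitatory neurons of the same vector differed. Pvalb and Necab2 were higher in GABAergic-like than in glutamatergic-like nuclei, and none of the 8 was lower. Of the 7 genes tested these 2 passed, while 3.11% of all 8801 genes tested passed in either direction, 1.6% as higher and 1.51% as lower. The test was edgeR's quasi-likelihood test on counts summed per vector and class, with the vector as a block and Benjamini-Hochberg adjustment over all genes tested, in the 12 vectors where both classes had 3 or more nuclei.

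Pvalb sums in GABAergic-like nuclei ran from 100.4 to 554 CPM with a median of 304, and in glutamatergic-like nuclei from 0 to 24.7 with a median of 2.41. All 12 vectors showed the same direction and the classes did not overlap. The ratio of the means, 297 ± 143 against 6.36 ± 8.44 CPM, was 46.7, and the fitted log2 fold change was 6.77 ± 0.99 (SE; edgeR adjusted p = 8.84e-05). Necab2 had 0 to 119 CPM with a median of 45.2 in GABAergic-like sums and 0 to 30.4 with a median of 0 in glutamatergic-like sums, where 10 of 12 held no read. It was higher in 10 vectors and lower in 0, with a ratio of means of 13.3 and a fitted log2 fold change of 8.01 ± 1.92 (edgeR adjusted p = 0.0187). With so many sums at 0 the fitted value lies above the ratio of means. Without AiE0475m or without AiE0401h the adjusted p of Necab2 in edgeR's test was 0.0514 and 0.0511, and without hSyn1 or AiE0682h too few sums held it for a test. Without runs that hold a striatal projection neuron-like nucleus, which leaves 5 vectors, 1 of the 8 genes passed, as did 41 of all 9467 genes tested.

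Hpcal4, the sensor with the highest glutamatergic-like share, had 0 to 249 CPM with a median of 19.8 in GABAergic-like sums and 21.7 to 446 with a median of 135 in glutamatergic-like sums. It was lower in GABAergic-like nuclei in 10 of 12 vectors, with a log2 fold change of -3.0 ± 0.88, and missed the threshold in edgeR's test (adjusted p = 0.066), although it passed without the CMV vector (adjusted p = 0.0263). Calb1 had 299 ± 160 against 91.9 ± 99.4 CPM, a log2 fold change of 2.62 ± 1.11 (edgeR adjusted p = 0.325). For Necab1, Pcp4 and Hpca the fitted values were -0.53 ± 1.49, 0.73 ± 1.0 and -0.67 ± 0.67, with edgeR adjusted p from 0.83 to 0.968. The value of Pcp4 became -1.68 without the runs that hold striatal projection neuron-like nuclei, and the GABAergic-like nuclei of those runs had 455 CPM of Pcp4 against 191 in the other runs. Striatal markers summed to 600.4 CPM in the former (8 of 10 above 10 CPM, 1 at 0) and to 377 in the latter (6 of 10, 1 at 0), and the part of the source region in this difference was not tested.

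Striatal projection neurons are themselves GABAergic, so the second comparison set them against the interneuron-rich GABAergic-like class. Hpca, Necab2 and Pcp4 were higher in striatal projection neuron-like nuclei and Pvalb was lower. That is 4 of 7 genes tested, 3 higher and 1 lower, in 12 vectors, while 8.02% of all 9018 genes passed, 3.26% higher and 4.76% lower.

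Hpca ran from 191 to 1359 CPM with a median of 644 in striatal projection neuron-like sums and from 17.3 to 451 with a median of 123 in GABAergic-like sums. The classes overlapped, but the striatal sum was the higher in 12 of 12 vectors, with a log2 fold change of 2.63 ± 0.38 (edgeR adjusted p = 6.29e-05). Necab2 ran from 121 to 601 CPM against 0 to 119, without overlap, with medians of 209 and 45.2 and a log2 fold change of 3.13 ± 0.86 (edgeR adjusted p = 0.0238). Pcp4 was higher in 11 of 12 vectors, at 953 ± 374 against 387 ± 348 CPM, with a log2 fold change of 1.99 ± 0.45 (edgeR adjusted p = 0.00524). Pvalb was at 0 in 10 of 12 striatal sums and at most 9.19 CPM, against 60.2 to 549 with a median of 216 in GABAergic-like sums. Its classes did not overlap, and the fitted log2 fold change was -10.01 ± 1.02 (edgeR adjusted p = 8.16e-07), with a ratio of means of 225. Leaving out any 1 vector kept the number of genes called at 4.

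The remaining 3 tested genes did not pass. Necab1 had 6.54 to 443 CPM with a median of 139.6 in striatal sums and 2.43 to 211 with a median of 17.2 in GABAergic-like sums, higher in 9 of 12 vectors (log2 fold change 2.34 ± 0.87, edgeR adjusted p = 0.116). Calb1 stood at 341 ± 243 against 299.7 ± 159 CPM (log2 fold change 0.31 ± 0.42, edgeR adjusted p = 0.786). Hpcal4 stood at 41.6 ± 35.7 against 47.4 ± 46.9 CPM, and its fitted value of 0.25 ± 1.43 (edgeR adjusted p = 0.962) has the opposite sign to its ratio of means.

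Against glutamatergic-like nuclei, the projection neurons of cortex, striatal projection neuron-like nuclei had more Necab2, Pcp4, Hpca and Calb1. These were 4 of 6 genes tested in 9 vectors, against 3.08% of all 7595 genes, 1.66% as higher. Pvalb and Calb2 were too low in both classes to be tested. This comparison shares its striatal sums with the second and its glutamatergic-like sums with the first, so the 3 are not independent.

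Necab2 was at 0 in 8 of 9 glutamatergic-like sums and at most 30.4 CPM, while striatal projection neuron-like sums ran from 121 to 601 with a median of 217 (log2 fold change 10.32 ± 1.28, edgeR adjusted p = 4.58e-05; ratio of means 75.2). Pcp4 ran from 683 to 1810 CPM with a median of 988 against 0 to 225 with a median of 74.9 (log2 fold change 3.97 ± 0.62, edgeR adjusted p = 0.000415). Hpca ran from 506 to 1359 CPM with a median of 667 against 92.5 to 449.7 with a median of 158 (log2 fold change 2.21 ± 0.37, edgeR adjusted p = 0.00083). For these 3 genes no striatal sum was as low as any glutamatergic-like sum. The share of all genes tested whose sums did not overlap was not computed, here or in the other comparisons. The lack of overlap therefore does not set these genes apart from others. Calb1 overlapped between the classes, from 69.1 to 944 CPM with a median of 325 against 0 to 273 with a median of 25.2, and was higher in 8 of 9 vectors (log2 fold change 3.98 ± 1.07, edgeR adjusted p = 0.0453). The Calb1 call was lost without any 1 of AiE0078h, AiE0475m, AiE0401h, hI56i, AiE0682h or AiE0743m_3xC2, with edgeR adjusted p from 0.0615 to 0.144, and with RLE scaling (0.0512). Hpcal4 stood at 44.5 ± 36 against 183 ± 123 CPM, lower in 8 of 9 vectors (log2 fold change -2.78 ± 0.97, edgeR adjusted p = 0.178), and Necab1 at 129 ± 122 against 73.7 ± 64.3 CPM (log2 fold change 1.42 ± 1.45, edgeR adjusted p = 0.917). Within library series S40326 alone, with 5 vectors, 1 of the 8 genes passed, as did 54 of all 7291 genes tested. S40324 alone holds too few vectors for a fit.

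**Figure D2:**
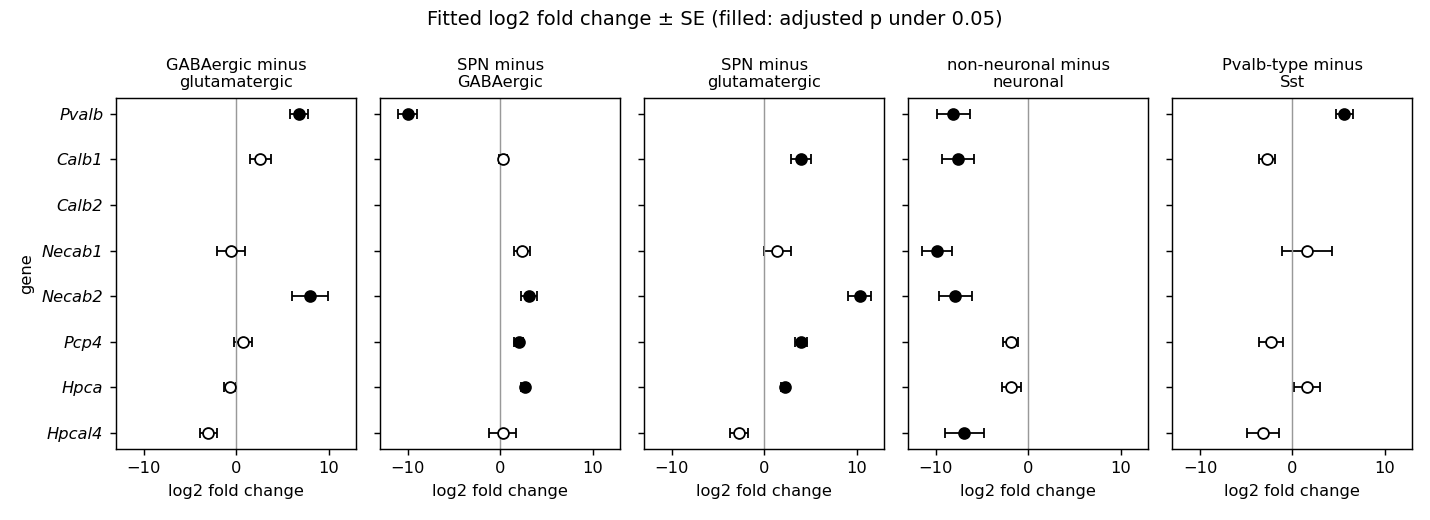
Fitted log2 fold change (horizontal axes) of each gene tested (vertical axis) in the 5 comparisons, one panel each, where SPN stands for striatal projection neuron-like; bars are the SE and filled points have an edgeR adjusted p under 0.05. Pvalb is positive in the panels that set GABAergic-like against glutamatergic-like and Pvalb-type-like against Sst-like nuclei and negative where striatal or non-neuronal nuclei come first, and genes without a point had too few reads to be tested.

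Glial nuclei held less of most of the set. In astrocyte-like and oligodendrocyte-like nuclei together, Necab1, Pvalb, Necab2, Calb1 and Hpcal4 were lower than in the neuronal nuclei of the same vector. Those were 5 of 7 genes tested in 15 vectors, but 35.4% of all 9725 genes tested passed, 33.3% as lower and 2.04% as higher, and over all genes tested the median log2 value was -2.79. The levels are relative to each sum, and glial nuclei had fewer genes detected.

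Necab1 was at 0 in 12 of 15 glial sums and ran from 42.2 to 236 CPM with a median of 87.2 in neuronal sums (log2 fold change -9.85 ± 1.62, edgeR adjusted p = 2e-05; ratio of means 6.01). Calb1 had a median of 0.31 CPM in glial sums, with 0 to 206, and a median of 259 in neuronal sums, with 30.5 to 532 (log2 fold change -7.63 ± 1.72, edgeR adjusted p = 0.000802). Pvalb and Necab2 were each at 0 in 10 of 15 glial sums, with fitted values of -8.11 ± 1.83 and -7.90 ± 1.77 (edgeR adjusted p = 0.000843 and 0.000752). The classes overlapped for all 4 genes, and in 14 of 15 vectors the glial sum was the lower. Hpcal4 passed with a fitted value of -6.91 ± 2.08 (edgeR adjusted p = 0.00965) and was lower in 12 of 15 vectors, with a glial median of 0 against 57.5 CPM. Its glial mean was nevertheless the higher, 81.0 ± 151 against 62.0 ± 39.4 CPM, and 1 glial sum reached 434 CPM, so the fitted value and the difference of means have opposite signs. Pcp4 had 0 to 622 CPM with a median of 121 in glial sums and 0.74 to 932 with a median of 461 in neuronal sums, lower in 14 of 15 vectors (log2 fold change -1.92 ± 0.83, edgeR adjusted p = 0.066), and it passed without AiE0390m (adjusted p = 0.0422). Hpca stood at 176 ± 226 against 310 ± 192 CPM (log2 fold change -1.83 ± 0.98, edgeR adjusted p = 0.138). Without the runs that hold striatal projection neuron-like nuclei, Pcp4 and Hpca turned to 0.24 and 0.22, and 2 of the 8 genes passed. Of all 7879 genes tested without those runs, 749 passed.

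Reads of several of the 8 genes in 1 glial nucleus were rare. 7 of 106 astrocyte-like nuclei had reads of 4 or more of the 8 genes, against 55 with none, and these 7 had a median of 8201 genes detected against 1432 in the other 99. They came from 5 vectors and 6 of them from runs with striatal projection neuron-like nuclei. In them, striatal markers summed to 1383 CPM (9 of 10 above 10 CPM, 0 at 0) and oligodendrocyte markers to 11412 CPM (7 of 8, 0 at 0), against 282 (5 of 10, 1 at 0) and 1397 CPM (7 of 8, 0 at 0) in the other 99. Astrocyte markers summed to 6076 CPM in the 7 and to 14780 in the 99. Of 50 oligodendrocyte-like nuclei 1 had reads of 4 or more of the genes, and its striatal markers summed to 14703 CPM (7 of 10, 3 at 0). The part of other cells in these reads was not tested. Among the 99 astrocyte-like nuclei with at most 2500 genes, Calb1 was at 8.70 CPM against 26.9 in all 106, Hpcal4 at 22.01 against 47.9, Pcp4 at 119 against 161 and Hpca at 110.0 against 128. Pvalb was at 11.1 against 15.2 CPM and Necab2 at 7.02 against 9.40, while Necab1 did not fall, at 11.6 against 11.5. When nuclei of very many genes were left out, an alternative chosen after the data were seen, Pcp4 passed as lower in glia, with a log2 fold change of -2.58 (edgeR adjusted p = 0.0277).

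Within the GABAergic-like class, the fifth comparison set Pvalb-type-like against Sst-like interneurons, named without Pvalb and without the other 7 genes. Pvalb was higher in Pvalb-type-like nuclei, from 133 to 1107 CPM with a median of 637, than in Sst-like nuclei, from 0 to 115 with a median of 15.6. The subclasses did not overlap, in 11 of 11 vectors, and the log2 fold change was 5.60 ± 0.93 (edgeR adjusted p = 0.00391; ratio of means 21.8). It was the 1 gene of 6 tested that passed, where 0.221% of all 7696 genes passed, 0.117% as higher and 0.104% as lower. Of single nuclei, 107 of 142 Pvalb-type-like (75.4%, 67.4 to 82.2%), 10 of 88 Sst-like (11.4%, 5.59 to 19.9%) and 0 of 27 Lamp5-like nuclei had a read, the last allowing up to 11.1%. With a minimum of 500 genes per nucleus, which changes the clusters and leaves 6 vectors, or within series S40326 alone, Pvalb did not pass (adjusted p = 0.589 and 0.131).

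Calb1 pointed the other way without passing. It had 0 to 415 CPM with a median of 99.9 in Pvalb-type-like and 0 to 1166 with a median of 529 in Sst-like sums, lower in 9 of 11 vectors (log2 fold change -2.71 ± 0.88, edgeR adjusted p = 0.395). Reads of Calb1 were in 52 of 88 Sst-like nuclei (59.1%), 46 of 142 Pvalb-type-like nuclei (32.4%) and 0 of 27 Lamp5-like nuclei. The Sst-like level of 592 CPM was 1265 times the floor of 3 counts over the Lamp5-like nuclei, a floor of reads and not of nuclei. Pcp4, Hpcal4, Hpca and Necab1 had fitted values of -2.30 ± 1.25, -3.17 ± 1.72, 1.57 ± 1.43 and 1.62 ± 2.699, with edgeR adjusted p from 0.944 to 1, and Necab2 and Calb2 were not tested.

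The clusters inside these types are described here without a test, since each was formed from the same nuclei. Among Sst-like nuclei, the 24 of the cluster led by Sst, Nos1 and Npy had Pcp4 in 23 (95.8%, 78.9 to 99.9%) at 1803 CPM, above every other class or cluster described here, while the other 64 had it in 13 (20.3%) at 44.1 CPM. Calb1 was the reverse, at 161 CPM in the former and 778 CPM in the latter, where 42 of 64 nuclei had a read. Hpca was read in 13 of 24 against 14 of 64. Among Pvalb-type-like nuclei, the 27 of the cluster led by Gpr83, Kit and Igfbp4 had Necab2 in 20 (74.1%), Necab1 in 16 (59.3%) and Pcp4 in 21 (77.8%), whereas the other 115 had them in 5, 11 and 22. Pvalb itself was in 14 of the 27 (51.9%) at 184 CPM and in 93 of the 115 (80.9%) at 537 CPM. Lamp5-like nuclei had Necab1 and Necab2 in 10 of 27 each, and Calb2 in 2. Of the Nos1 cluster 11 of 24 nuclei, and of the Gpr83 cluster 15 of 27, were in runs with striatal projection neuron-like nuclei, against 12 of 64 and 26 of 115 in the clusters beside them. Within the Nos1 cluster Pcp4 had 1944 CPM in such runs and 1684 CPM in the others.

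Glutamatergic-like clusters also differed. The L2/3 IT-like cluster (upper-layer neurons that project within the telencephalon) had Calb1 in 18 of 26 nuclei (69.2%) at 324 CPM and Pcp4 in 2. The L5 ET-like cluster (deep-layer neurons that project out of it) had Pcp4 in 12 of 18 nuclei (66.7%) and Calb1 in 3, at 0.64 CPM. An unnamed cluster of 24 nuclei led by Nptx1 had Pcp4 in 18 (75%) at 277 CPM and Hpcal4 in 17 (70.8%) at 288 CPM, above every other class or cluster described here. Necab2 was read in 2 nuclei each of the clusters of 26 and 24 and in 0 of the other 3.

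**Figure D3:**
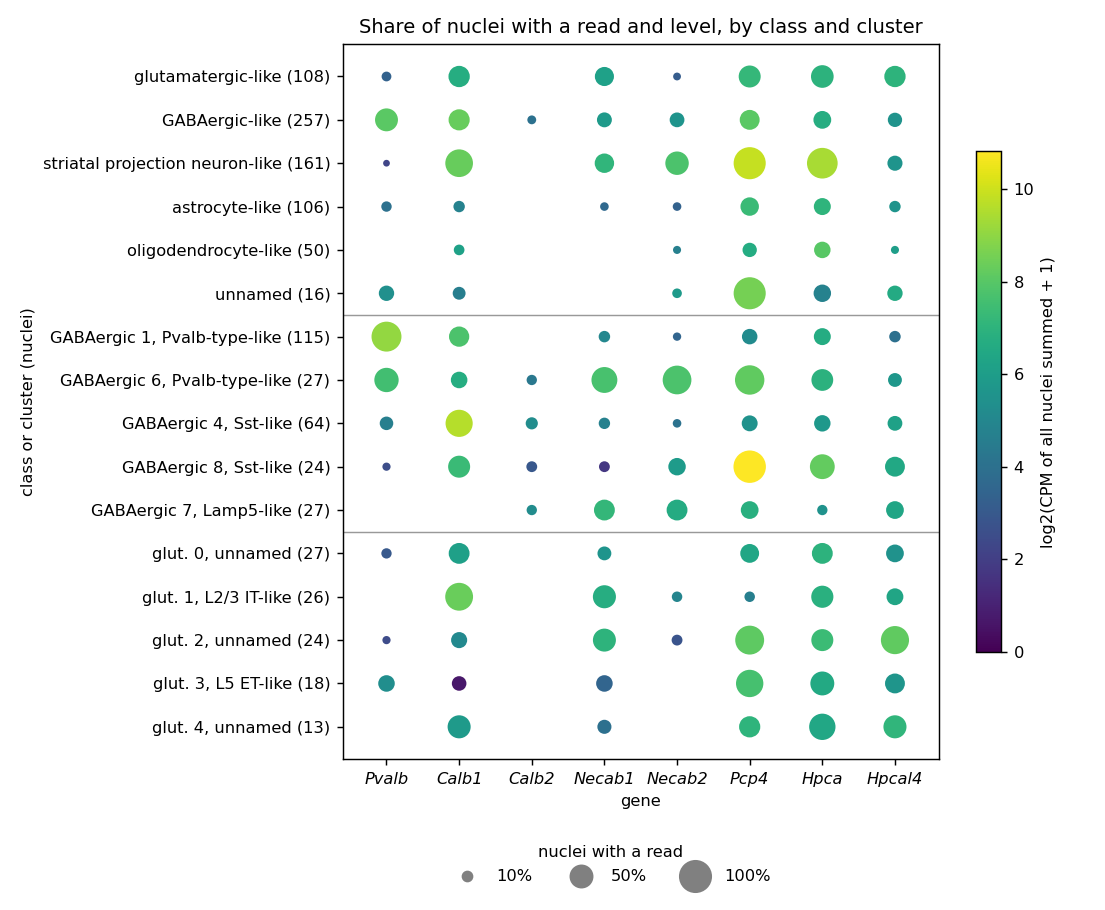
Each dot is a gene (horizontal axis) in a class or cluster (vertical axis, nuclei in brackets; glut. stands for glutamatergic); its area shows the share of nuclei with a read and its colour log2(CPM + 1) of all nuclei summed. The Sst-like cluster 8 has Pcp4 in 95.8% of nuclei and the Sst-like cluster 4 in 20.3%, and Calb2 has reads only in GABAergic-like clusters.

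Striatal projection neuron-like nuclei had reads of 3.47 of the 8 genes on average, GABAergic-like nuclei of 1.99, glutamatergic-like of 2.05, astrocyte-like of 0.88 and oligodendrocyte-like of 0.54. None of the 161 striatal nuclei was without a read of the set. Pcp4 and Hpca were together in 131 of them, near the 128.5 expected from their shares alone. In GABAergic-like nuclei 19 had both Necab1 and Necab2, where 7.70 would be expected if the genes were read independently, and 1 had both Pvalb and Calb2, where 5.92 would be. These expected numbers mix the interneuron types: within Sst-like nuclei 1 had Pvalb and Calb2 with 1.02 expected, and within Pvalb-type-like nuclei 0 with 1.51 expected. Necab1 and Necab2 were together in 14 Pvalb-type-like nuclei with 4.75 expected, and in 1 Sst-like nucleus with 0.82 expected. The 4.75 still mixes the Gpr83 cluster, at 203 CPM of Necab1 and 213 CPM of Necab2, with the other Pvalb-type-like cluster, at 31.2 and 10.2 CPM. Expected numbers within each cluster were not computed, so no joint reading within a type is claimed. These counts describe nuclei that share vectors and runs, and no test was made.

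By vector, the level followed no single order. Summed over all kept nuclei of a vector, Pvalb ran from 0 in AiE0410m to 259 CPM in AiE0452h, where 29 of 35 nuclei were GABAergic-like. Calb1 ran from 17.3 CPM in CMV to 411 in AiE0078h, and Pcp4 from 0.41 CPM in DLX2.0, which had no striatal projection neuron-like nucleus among its 38, to 815 in AiE0387m, where 25 of 40 were. Hpca ran from 38.6 CPM in hSyn1 to 479.9 in AiE0450h, Necab2 from 2.69 in DLX2.0 to 182 in AiE0450h, Necab1 from 23.5 in DLX2.0 to 180.1 in AiE0445h_3xC2, and Hpcal4 from 0.11 in AiE0390m to 181 in AiE0682h. Calb2 was at 0 in 12 of 20 vectors and highest, at 26.8 CPM, in AiE0452h. Each vector is 1 sample, so vectors were not tested against each other, and the mix of classes differed between them: hSyn1 gave 27 glutamatergic-like and 11 GABAergic-like nuclei, and AiE0390m 25 astrocyte-like nuclei of 33. Within the GABAergic-like class alone Pcp4 still ran from 0 in CMV (3 nuclei) and 0.78 in DLX2.0 (24 nuclei) to 1016 CPM in hI56i (4 nuclei), and Pvalb from 60.2 CPM in AiE0445h_3xC2 to 554 in hSyn1.

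**Figure D4:**
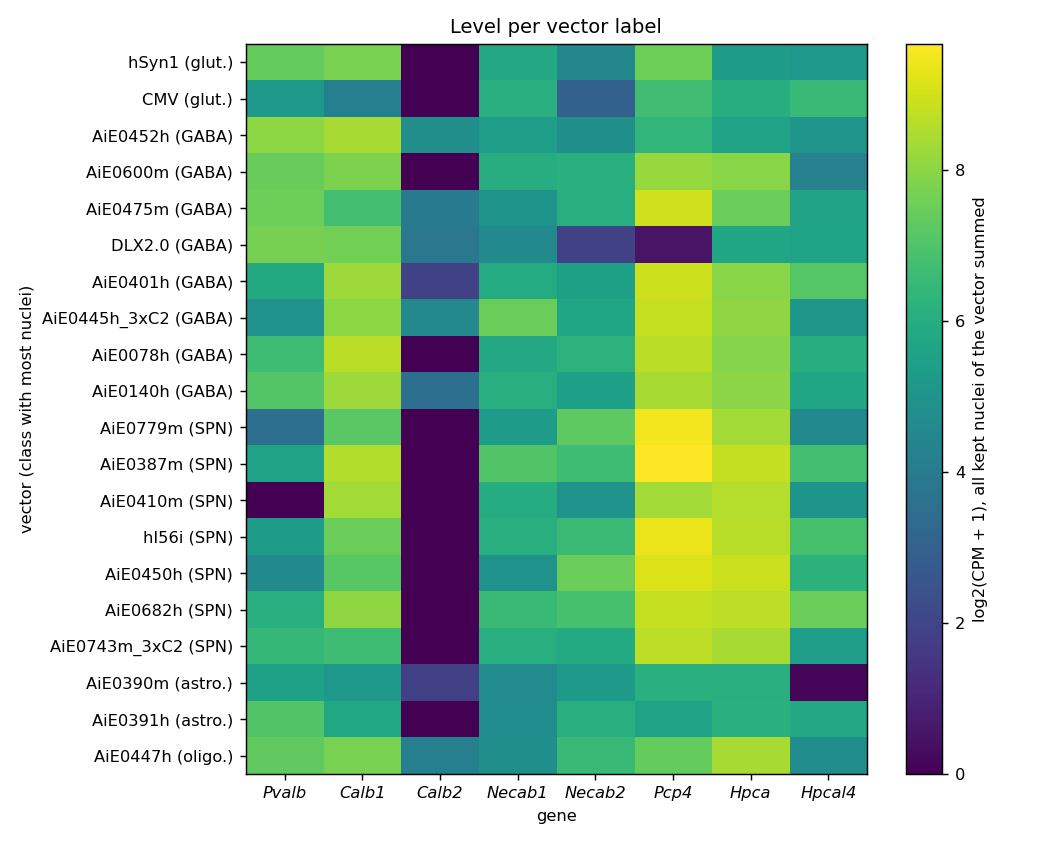
Colour gives log2(CPM + 1) of each gene (horizontal axis) over all kept nuclei of a vector (vertical axis), with the class that holds most of its nuclei in brackets (glut. glutamatergic-like, GABA GABAergic-like, SPN striatal projection neuron-like, astro. astrocyte-like, oligo. oligodendrocyte-like). Pcp4 is lowest in DLX2.0, at 0.41 CPM, and Calb2 is at 0 in 12 of 20 vectors.

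Genes whose pattern was most like that of each member were found over the 60 sums of a vector and class, among 10569 genes outside both lists, by Pearson's r of log2(CPM + 1). These values describe sums that share nuclei, libraries and depth. Pvalb was most like Kcns3 (r = 0.89), a potassium channel subunit that is also one of the Pvalb-type markers, then Gm12120 and Igsf3 (0.88 each). Pcp4 was closest to Ppp1ca, a phosphatase subunit (0.71), and Ppp1r1b, the dopamine-regulated phosphatase inhibitor and a striatal marker here (0.69), and Hpca to Atp2b1, a calcium pump of the plasma membrane (0.71), and Pde1b, a calmodulin-dependent phosphodiesterase (0.69). Hpcal4 was closest to Atp2b4, also a calcium pump (0.66), Calb1 to Thsd7a (0.75), Calb2 to Adm (0.74), Necab1 to B230209E15Rik (0.82) and Necab2 to Klhl13 (0.77). Among the members themselves, Pcp4 and Hpca (0.68) and Calb1 and Necab1 (0.64) had the highest values, and Hpca and Calb2 the lowest (-0.15).

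The wider list of 62 calcium-binding genes places the 8 among their relatives. In GABAergic-like against glutamatergic-like nuclei, 42 could be tested, 3 were higher and 2 lower, with a median log2 fold change of -0.18 against 0.26 for all genes tested. Of all genes tested, 1.6% passed as higher and 1.51% as lower. Kcnip1, a calcium-binding subunit of Kv4 potassium channels, had 293 ± 138 against 0.20 ± 0.68 CPM (log2 fold change 11.06 ± 0.90, edgeR adjusted p = 7.56e-09). Pcp4l1, a relative of Pcp4, had 140.2 ± 85.1 against 4.20 ± 9.61 CPM and was higher too (edgeR adjusted p = 0.00325). Canx, a chaperone of the endoplasmic reticulum, was the third, at 317 ± 103 against 93.4 ± 91.5 CPM (edgeR adjusted p = 0.0372), and lost its call without any 1 of hSyn1, AiE0078h, AiE0140h, AiE0475m, AiE0452h, AiE0450h, AiE0447h or AiE0682h, with adjusted p up to 0.0954. Kcnip3 (9.75 ± 17.3 against 114 ± 82.7 CPM) and Nrgn, which binds calmodulin in dendrites (70.6 ± 26.4 against 372 ± 127 CPM), were the lower ones, with edgeR adjusted p of 0.0118 and 0.000163.

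In striatal projection neuron-like against GABAergic-like nuclei, 41 of the 62 were tested, 6 were higher and 7 lower (median -0.13, all genes -0.54). Of all genes tested there, 3.26% passed as higher and 4.76% as lower. Nrgn was higher at 382 ± 107 against 64.7 ± 30.8 CPM (log2 fold change 2.72 ± 0.40, edgeR adjusted p = 7.04e-05), and so were Kcnip3 (88.2 ± 60.2 against 10.52 ± 17.9 CPM), Tesc (94.3 ± 56.3 against 10.3 ± 12.6 CPM) and Caln1 (184 ± 54.9 against 72.0 ± 46.9 CPM), with edgeR adjusted p of 0.0261, 0.0357 and 0.0418. The calls of Kcnip3 and Tesc were each lost without 8 of the 12 vectors in turn and that of Caln1 without 9. AiE0078h, AiE0140h, AiE0387m, AiE0391h, hI56i and AiE0682h were among them for all 3 genes, AiE0447h for Kcnip3, AiE0743m_3xC2 for Kcnip3 and Caln1, and AiE0445h_3xC2 and AiE0450h for Tesc and Caln1, with edgeR adjusted p up to 0.0625, 0.087 and 0.0948. Kcnip1 was at 0 in 12 of 12 striatal sums. Its GABAergic-like level was 3304 times the floor of 3 counts over the striatal class, a floor of reads and not of nuclei. Efhd2 (2.83 ± 9.80 against 77.2 ± 51.7 CPM), Ncald (34.5 ± 66.7 against 208 ± 113 CPM) and Vsnl1 (5.58 ± 6.72 against 87.9 ± 59.8 CPM) were lower as well (edgeR adjusted p from 0.000113 to 0.0178), and the last 2 are neuronal calcium sensors of the same family as Hpca.

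Against glutamatergic-like nuclei, 38 were tested, with 3 higher and 2 lower (median 0.09, all genes 0.04). Among all genes tested, 1.66% passed as higher and 1.42% as lower. Pcp4l1 (267 ± 130.2 against 3.60 ± 10.8 CPM), Kcnip2 (389 ± 254 against 57.3 ± 46.1 CPM) and Calm2, which codes for calmodulin (2086 ± 757 against 1139 ± 283 CPM), were higher, with edgeR adjusted p of 0.000463, 0.00744 and 0.0462. Calm2 lost its call without any 1 vector except AiE0140h, with adjusted p up to 0.149. Necab3, the third Necab gene, was at 0 in 7 of 9 striatal sums, with a mean of 4.63 ± 12.35 against 169 ± 121 CPM, and Syt1, the calcium sensor of synaptic release, stood at 639 ± 162 against 1402 ± 324 CPM; both were lower (edgeR adjusted p = 0.000808 and 0.00901). Necab3 thus differed in the opposite direction to Necab2 between the same sums.

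In non-neuronal-like against neuronal-like nuclei, 45 were tested, 3 higher and 12 lower (median -1.94, all genes -2.79). Among all genes tested, 2.04% passed as higher and 33.3% as lower, so the lower calls do not set the list apart. The 3 were S100 genes, EF-hand proteins known from glia: S100a16 (310 ± 194 against 10.8 ± 15.1 CPM), S100a1 (150.1 ± 98.1 against 3.93 ± 5.70 CPM) and S100b (150.3 ± 136 against 15.1 ± 16.9 CPM), with edgeR adjusted p of 0.000159, 0.0022 and 0.0289. S100b lost its call without any 1 of CMV, DLX2.0, AiE0450h, AiE0682h or AiE0743m_3xC2, with adjusted p up to 0.0619. Kcnip1, Kcnip2, Caln1 and Kcnip4 were the lower ones with the largest changes, from -11.34 to -8.15 on the log2 scale (edgeR adjusted p from 6.89e-07 to 0.000381). In Pvalb-type-like against Sst-like nuclei 36 were tested and 0 passed in edgeR's test, with 8 at an unadjusted p under 0.05, 8 by DESeq2 and 0 by the sign-flip permutation test. Of all genes tested there, 0.221% passed in edgeR's test.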

How the data were processed

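Nuclei were prepared with SMART-Seq v4 and Nextera XT for sequencing, per the labels' protocols. The authors deposited whole-number counts of reads per gene, with STAR 2.7.2a and mm10 named in the submitters' processing notes; for the gene annotation and counting rule, the sources used here give nothing. Of 2501 columns, 1701 match no labelled sample and were not used. No 2 labelled nuclei held identical values. Nuclei with at least 1000 genes were clustered with scanpy 1.11.5 (2000 variable genes, 30 components, Leiden resolution 1), with the 8 genes and the wider list left out, and clusters were named from marker lists. No doublet caller was run, and nuclei of very many genes were left out as an alternative. Counts were summed per vector and class where at least 3 nuclei were present, and tested with edgeR 4.0.16 (R 4.3.3; TMM, filterByExpr by group, quasi-likelihood test, vector as block, Benjamini-Hochberg adjustment, threshold 0.05). Levels (CPM) are counts scaled to a total of 1e+06 in each sum. Shares have exact Clopper-Pearson intervals at 95%, and a share of 0 allows up to 3 counts of the total. In simulated data for GABAergic-like against glutamatergic-like nuclei (8801 genes, 200 changed by a log2 fold change of 3) edgeR recovered 48.5% and called 3 unchanged genes, DESeq2 recovered 83.0% and called 269, and a sign-flip permutation test recovered 0.0% and called 0. The simulated counts followed the spread fitted by edgeR and held no vector effect, so they do not rank the tools for these data. In the real sums of that comparison the sign-flip test called 457 genes. DESeq2 1.42.0 was an alternative, beside the sign-flip test, other filters, minimums, resolutions and subsets. All 8 genes are named throughout; of the wider list, at most 4 called genes per direction and comparison are named, by size of change. The members and lists were chosen with earlier results of these data known.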

Additional observations from a re-analysis of the deposited data

Results flagged for a closer look

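In 9 of 18 groups of 4 to 10 vectors, 1 vector was flagged by the size of its gap to the next. The limits of this rule hold for normal values, whereas many of these sums were at 0. Where all other sums of a group are at 0, any read is flagged, so the number flagged cannot be set against a chance rate. Most of these sums rest on 1 to 4 nuclei with a read. In astrocyte-like nuclei AiE0391h had 70.2 CPM of Pvalb against 33.97 in the next vector, with reads in 3 of 13 nuclei. AiE0401h, with 4 such nuclei, had 159 CPM of Calb1 against 36.1, 248 CPM of Necab1 against 23.8 and 189 CPM of Hpcal4 against 62.0. AiE0600m had 87.3 CPM of Necab2 against 15.4, from 1 of 8 nuclei. In oligodendrocyte-like nuclei AiE0682h had 106 CPM of Necab2 against 33.7, from 1 of 6 nuclei, and hI56i had 434 CPM of Hpcal4, from 1 of 5 nuclei, against 0. In Lamp5-like nuclei AiE0445h_3xC2 had 243 CPM of Calb2 against 37.7, from 1 of 3 nuclei, and DLX2.0 had 178 CPM of Hpca, from 1 of 6, against 0. Pcp4 was read in 15 of the 16 nuclei of the unnamed cluster (93.8%, 69.8 to 99.8%), which enters no comparison. It came from 8 vectors, had Adarb2 and Lhx8 among its leading genes, and 9 of its nuclei were in runs with striatal projection neuron-like nuclei.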

How the results depend on the processing

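The numbers of the 8 genes called were 2 (GABAergic-like against glutamatergic-like), 4 (striatal projection neuron-like against GABAergic-like), 4 (against glutamatergic-like), 5 (glia against neurons) and 1 (Pvalb-type-like against Sst-like). Leaving out 1 vector at a time gave 1 to 3, 4 to 4, 3 to 4, 5 to 6 and 1 to 1. In the first comparison DESeq2 and a filter of at least 1 count each called 4, and 1 was called with no vector block, with equal numbers of nuclei, without runs that hold striatal projection neuron-like nuclei and in series S40326 alone. In the third, S40326 alone called 1. For glia, 1 was called with no vector block, 2 without those runs and 0 in series S40324 alone. In the fifth, DESeq2 and the 1-count filter called 2, and a minimum of 500 genes and S40326 alone called 0. Log2 fold changes that changed sign were those of Necab1 in the first comparison (0.066 with equal numbers, 0.11 without those runs, 0.18 without nuclei of very many genes), Pcp4 there (-0.33 with a minimum of 500 genes, -0.38 at Leiden resolution 2, -1.68 without those runs), Hpcal4 in the second (-0.22 by sign-flip, -0.10 with no vector block, -1.45 with a minimum of 2000 genes, -1.61 at resolution 2, and from -0.30 to 0.74 leaving out 1 vector, below 0 without AiE0140h, AiE0475m, AiE0447h or AiE0743m_3xC2), Necab1 in the third (-0.56 in S40326 alone), Pcp4, Hpca and Hpcal4 in glia (0.24 and 0.22 without those runs, 0.25 with no vector block), and Necab1 (-0.38 with at least 5 nuclei per sum, -1.27 without those runs) and Pcp4 (0.37 with a minimum of 500 genes) in the fifth; the cause was not tested. Beside these 17 of 774 log2 fold changes, 655 kept direction and side of the threshold, as did 637 of 697 leaving out 1 vector. A further 85 of the 774 lost their call and 17 gained one. Of the 697, 54 lost their call, 2 gained one and 4 changed sign. Over all genes, against 274, 723, 234, 3441 and 17 called, DESeq2 called 1416, 2559, 1066, 6466 and 582, the 1-count filter 483, 1294, 400, 5613 and 70, and S40326 alone 62, 280, 54, 2099 and 6. The sign-flip permutation test called 457, 1426, 0, 5060 and 0. In the third and in the fifth, with 9 and 11 vectors, it thus called 0 genes of any kind (1267 and 912 at an unadjusted p under 0.05), so its 0 of the 8 genes there says nothing on their calls. Other counts that moved by over 1.5 times were 172 and 1242 (equal numbers, the first and glia), 1090 and 11 (no vector block, glia and the fifth), 41, 749 and 6 (without those runs, the first, glia and the fifth), 130 (5 nuclei, the third), 1 and 30 (500 genes and resolution 2, the fifth) and 227 (S40324, glia). RLE scaling split the fifth comparison 8 higher and 11 lower against 9 and 8, and moved the median of all genes from 0.04 to -0.08 in the third and from -2.79 to -2.67 in glia. A minimum of 2000 genes for glia, and series S40324 for the other 4, left too few vectors for a fit. Classes were paired by vector in every comparison. By replicate number no paired analysis was possible because the numbers name nuclei, not matched samples. Sums of 3 to 5 nuclei limit the precision of sparse genes.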
